A study of Homo sapiens with 12 samples.

Results

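Human MCF10-A cells with an induced p16 transgene and the mTOR inhibitor Torin2 were compared, gene by gene, with MCF10-A cells with an induced p21 transgene. The members are 6 of the 12 libraries of the series, taken by their titles: 3 of cells in which p16 was induced and Torin2 was given, and 3 of cells in which p21 was induced. MCF10-A is a non-tumorigenic human breast epithelial line, grown here at passages 12 to 15 with horse serum, EGF, insulin, hydrocortisone and cholera toxin. The transgene, under a doxycycline-inducible promoter, encoded a fusion of p16 or of p21 with the yellow fluorescent protein mVenus. All cells were seeded at 150000 a well, received 50 ng/ml doxycycline after 20 h and were collected at 5 days. At 24 h of induction the medium was replaced by one with doxycycline and either the solvent DMSO or 100 nM Torin2, and it was renewed every 48 h. Torin2 was given to p16 cells only, so the 2 groups differ in the transgene and in the drug, and the contributions of the transgene and the drug to a difference between them cannot be told apart. For this reason the levels in p16 cells with DMSO and in cells with mVenus alone, 3 libraries each, are given beside the main values of some genes and lists. Where they are not given, the values do not show which of the 2 groups departs from the controls. The labels do not say whether a line is a clone, and the series text calls the 3 libraries of a group biological replicates.

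Both p16 and p21 hold back cyclin-dependent kinases, so that the RB family stays active and keeps E2F and cell cycle genes silent. Whereas p16 acts on the kinases CDK4 and CDK6, p21 acts on a wider set, including CDK2, and is itself a target of p53. Cells held in such an arrest can become senescent, with large size, active lysosomes, loss of lamin B1 and secretion of matrix and immune factors. The kinase mTOR couples nutrients and growth factors to protein synthesis. Torin2 blocks its catalytic site, and the translation of mRNAs that begin with a terminal oligopyrimidine tract (TOP), among them those of ribosomal proteins and elongation factors, is known to depend on it. The series as a whole concerns DNA damage and its repair in senescent cells.

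The 6 libraries held 13649321 to 16269274 counts, and 14504 genes had enough counts across the series to be tested. Between libraries of the same group the correlation of log2 levels across genes was at least 0.992. Levels are in CPM, the counts after scaling by library size and composition. They are relative, so a gene's CPM can move when others change, and in bulk RNA fewer cells of a kind and less RNA per cell cannot be told apart. A gene is said to have risen or fallen when it was higher or lower in the p16 cells with Torin2 than in the p21 cells at an adjusted p under 0.05 over all tested genes. The edgeR quasi-likelihood test called 4815 genes higher (33.2% of those tested) and 4823 lower (33.3%), 66.5% in all. Of these genes, 1145 (7.89%) were at least 2-fold higher and 1361 (9.38%) at least 2-fold lower. In 10240 genes (70.6%) the 3 libraries of one group did not overlap the 3 of the other. The median log2 fold change over all tested genes was 0.01. With a background this broad, a gene list is described by its counts and median beside those over all genes, and the lists share some genes.

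**Figure D1:**
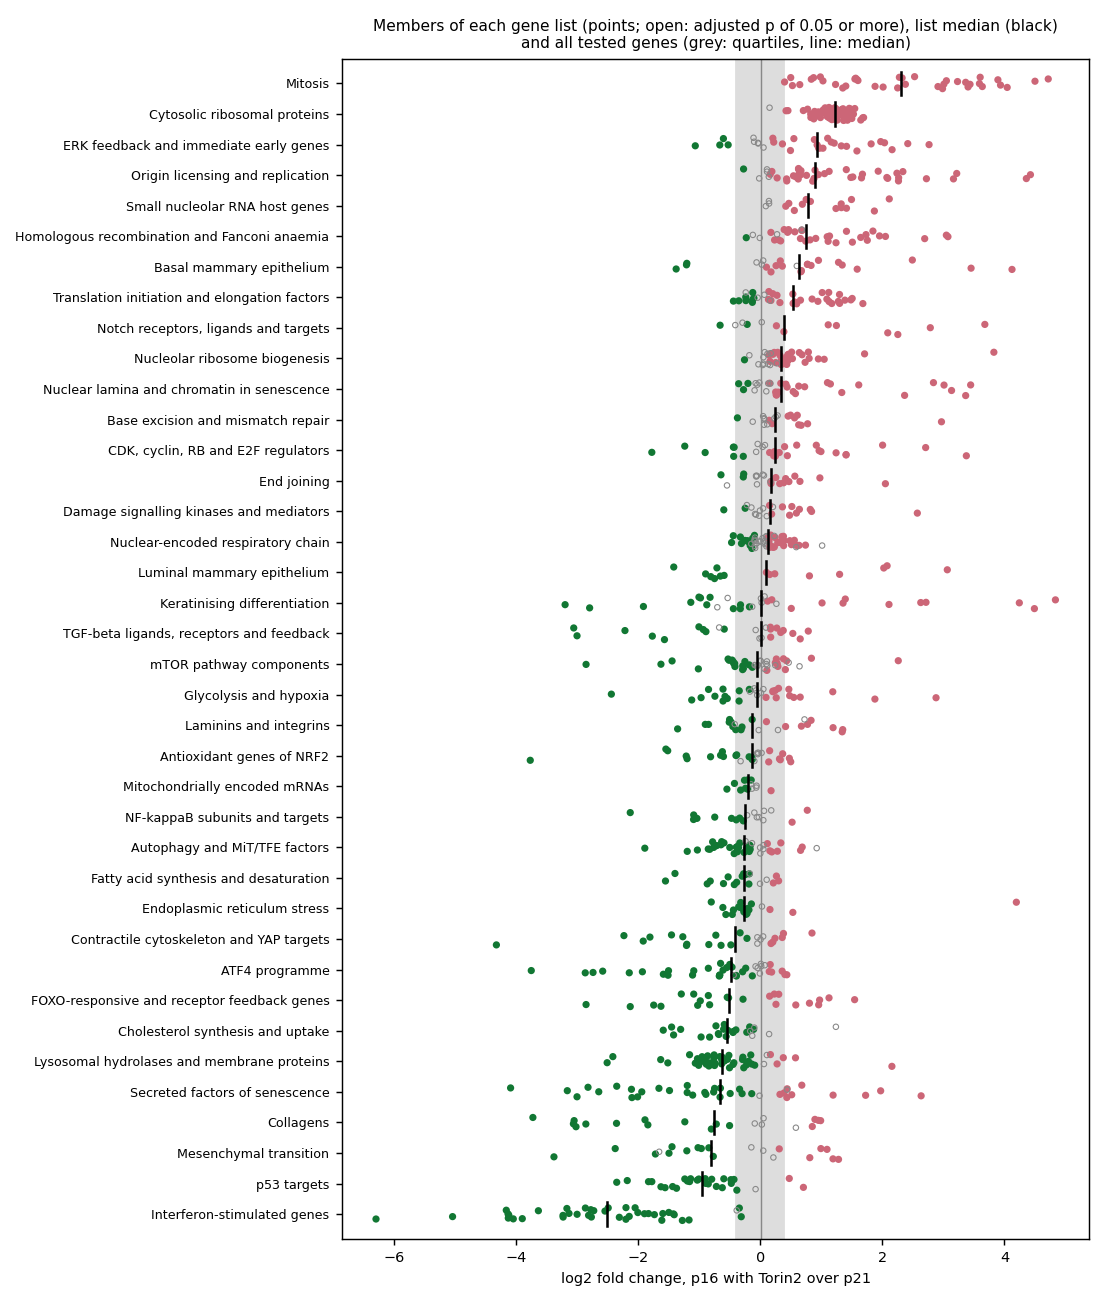
Log2 fold change of p16 with Torin2 over p21 (horizontal axis) for the tested members of 38 gene lists, ordered by list median (black bar). Filled points passed an adjusted p of 0.05 (red higher, green lower), open points did not, and the grey band holds the middle of all tested genes, from -0.39 to 0.39. INHBA and MMP9, with 0 counts in the p21 libraries, are not drawn. Mitosis has the highest list median and the interferon-stimulated genes have the lowest.

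The transgenes could be checked only in part. CDKN2A, the gene of p16 (chr9:21967753-21995301, GRCh38), had 0 counts in all 12 libraries, and so had its neighbour CDKN2B. The MCF10-A line is known to lack this locus. For the p16 cells with Torin2 a count of 0 allows up to 0.0650 CPM, a limit for counting error only, and it sets no limit on transcript from a transgene whose reads are not assigned to this gene. CDKN1A, the gene of p21 (chr6:36676460-36687339), stood at 241, 274 and 263 CPM in the p16 cells with Torin2 and at 871, 891 and 903 CPM in the p21 cells. All p21 libraries were above all of the other group, and the gene was 3.42-fold lower with p16 and Torin2 (log2 fold change -1.78 ± 0.04, adjusted p = 7.77e-18). It stood at 570.3 ± 30.1 CPM (mean ± SD) in p16 cells with DMSO and at 712 ± 13 in mVenus cells. Transcripts of the p21 transgene and of the cell's own gene were not separated in the counts.

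The genes of DNA replication and mitosis were higher in the p16 cells with Torin2 than in the p21 cells. Among genes of mitosis, 38 of 38 tested rose and 0 fell, with a median log2 fold change of 2.30. Among genes of origin licensing and replication, 37 of 42 rose and 1 fell (median 0.89). Against mVenus, all 38 and all 42 were lower in both groups. In that comparison 31.2% of all tested genes were higher and 36.1% lower with p16 and Torin2, and 28.2% were higher and 28.3% lower with p21. MKI67, the marker of cycling cells (chr10:128096659-128126385), stood at 52.2, 51.6 and 50.9 CPM with p16 and Torin2 and at 3.16, 3.84 and 3.06 CPM with p21. Each library of the first group was far above each of the second. The fold change was 15.3 (log2 3.94 ± 0.08, adjusted p = 6.66e-19). The level was 10.1 ± 0.427 CPM in p16 cells with DMSO and 331 ± 15.6 in mVenus cells, so the p16 cells with Torin2 lay between the arrested cells without drug and the mVenus cells. CDT1, which loads the replicative helicase at origins and was among the largest rises of all genes, stood at 13.2, 14.0 and 15.8 CPM against 0.881, 0.743 and 0.382. The groups did not overlap (log2 fold change 4.43 ± 0.17, adjusted p = 7.83e-15). MCM10, which activates that helicase, rose by 4.36 ± 0.24, and the nucleotide enzymes RRM2 and TK1 by 3.22 ± 0.15 and 3.17 ± 0.23. The spindle genes with the largest changes were DLGAP5 (4.72 ± 0.29), the ubiquitin conjugase UBE2C (4.50 ± 0.23) and the centrosomal kinase NEK2 (4.05 ± 0.24). The value for DLGAP5 rests on few counts in p21 cells and was 6.04 without p21 replicate 3. PCNA, the sliding clamp of the polymerases, went the other way, with 33.5, 34.4 and 30.2 CPM against 39.8, 39.6 and 39.1 (log2 fold change -0.27 ± 0.07, adjusted p = 0.00111). It is also a p53 target.

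Promoters of mitotic genes are known to carry a cell cycle homology element, TTTGAA, through which the DREAM complex of RB relatives holds them silent. The 150 bases before the start site of 2 of the risen genes are shown because both hold this element in more than 1 copy. They are from RefSeq on GRCh38.p14, read 5′ to 3′ on the gene's own strand, with TTTGAA on either strand in capitals.
MKI67 (chr10:128126424-128126573, minus strand): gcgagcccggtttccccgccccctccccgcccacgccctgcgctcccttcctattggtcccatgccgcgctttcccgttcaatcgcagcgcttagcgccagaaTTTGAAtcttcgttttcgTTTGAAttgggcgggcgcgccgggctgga
DLGAP5 (chr14:55191586-55191735, minus strand): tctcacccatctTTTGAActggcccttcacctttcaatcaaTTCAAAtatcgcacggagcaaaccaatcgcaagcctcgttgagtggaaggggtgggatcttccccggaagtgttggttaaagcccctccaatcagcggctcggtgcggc
Counted back from the start site, the matches begin 47 and 29 bases before it in MKI67 and 138 and 109 bases before it in DLGAP5. In the 250 bases before the start, TTTGAA on either strand was found in 19 of the 35 mitosis genes with a RefSeq promoter (54.3%), in 1 of 36 replication genes (2.78%) and in 13.6% of 27305 promoters of all genes. Within the 2 lists together, 19 of 19 tested genes with the element rose (median 2.01), and so did 45 of 50 without it (median 1.52). Those with it were nearly all mitosis genes, whose list median was 2.30, against 0.89 for the replication list. The split by element is thus also a split by list, and a link between the element and the rises was not tested. Over all tested genes with the element outside both lists, 831 in number, 34.8% were higher and 34.7% lower, with a median log2 fold change of 0.01. The match is a description of these letters and not a binding site.

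The regulators above these genes were mixed. Of 28 tested cyclins, CDK inhibitors, RB relatives and E2F factors, 17 rose and 7 fell (median 0.24). The risen members included MYBL2, the B-Myb activator of mitotic genes (3.38 ± 0.22), and E2F1, which activates genes of S phase (1.41 ± 0.23), at 2.17 ± 0.176 CPM against 0.819 ± 0.164. Cyclin D1, CCND1, the partner of CDK4 and CDK6, fell (-0.44 ± 0.03), and so did CDKN2C, an inhibitor of the same kinases (-0.90 ± 0.14). CDC25B, a phosphatase that releases CDK1 at mitotic entry, stood at 140.2, 146 and 156 CPM against 24.3, 24.7 and 25.3. It was 5.95-fold higher (log2 2.57 ± 0.05, adjusted p = 3.83e-19), with no overlap, and it stood at 88.2 ± 2.95 in p16 cells with DMSO and 73.9 ± 1.74 in mVenus cells. Its level in mVenus cells was thus below that in p16 cells with Torin2, unlike that of MKI67.

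Of the DNA repair lists, homologous recombination with the Fanconi anaemia pathway had the highest median. In homologous recombination and the Fanconi anaemia pathway, 30 of 35 tested members rose and 1 fell (median 0.74). The helicase BLM, which dissolves recombination intermediates, stood at 4.17, 4.98 and 4.92 CPM against 0.514, 0.805 and 0.319. All values were low, but the groups stood apart (log2 fold change 3.07 ± 0.25, adjusted p = 7.93e-10). RAD54L, a motor protein of strand exchange, rose by 2.69 ± 0.36. The member that fell was NBN of the MRN break sensor (-0.23 ± 0.05). In end joining, 11 of 22 rose and 3 fell (median 0.17). The end-joining polymerase POLQ rose by 2.05 ± 0.20. RIF1, which protects broken ends from resection, was 1.97-fold higher at 186, 168 and 165 CPM against 85.8, 90.6 and 87.1 (adjusted p = 8.66e-12), with no overlap between groups. PRKDC, the catalytic subunit of DNA-PK, rose by 0.57 ± 0.04. LIG4, the ligase of this route, fell by 0.64 ± 0.10 on the log2 scale and PARP1, a sensor of breaks, by 0.27 ± 0.03. Of 21 damage signalling kinases and mediators, 10 rose and 2 fell (median 0.15), with 1 fall without p16 with Torin2 replicate 2 or p21 replicate 3. Of 20 genes of base excision and mismatch repair 10 rose and 1 fell (median 0.24), with 2 falls without p21 replicate 3.

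Targets of p53 were lower in the p16 cells with Torin2. Of 28 tested, 25 fell and 2 rose (median -0.95). Beside CDKN1A, the largest falls included GDF15, a secreted stress factor, and EDA2R, a death receptor. GDF15 stood at 7.03, 5.62 and 7.15 CPM against 35.9, 29.9 and 35.5. The p21 libraries were all higher, by 5.10-fold (log2 fold change -2.35 ± 0.11, adjusted p = 1.66e-13). EDA2R fell by 1.83 ± 0.09 on the log2 scale. The risen members were PERP, a desmosomal and apoptotic protein (0.71 ± 0.04), and the kinase PLK3 (0.48 ± 0.06). Against mVenus, 21 of the 28 were lower and 2 higher with p16 and Torin2 (median -0.54). With p21, against the same mVenus libraries, 23 were higher and 2 lower (median 0.35).

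**Figure D2:**
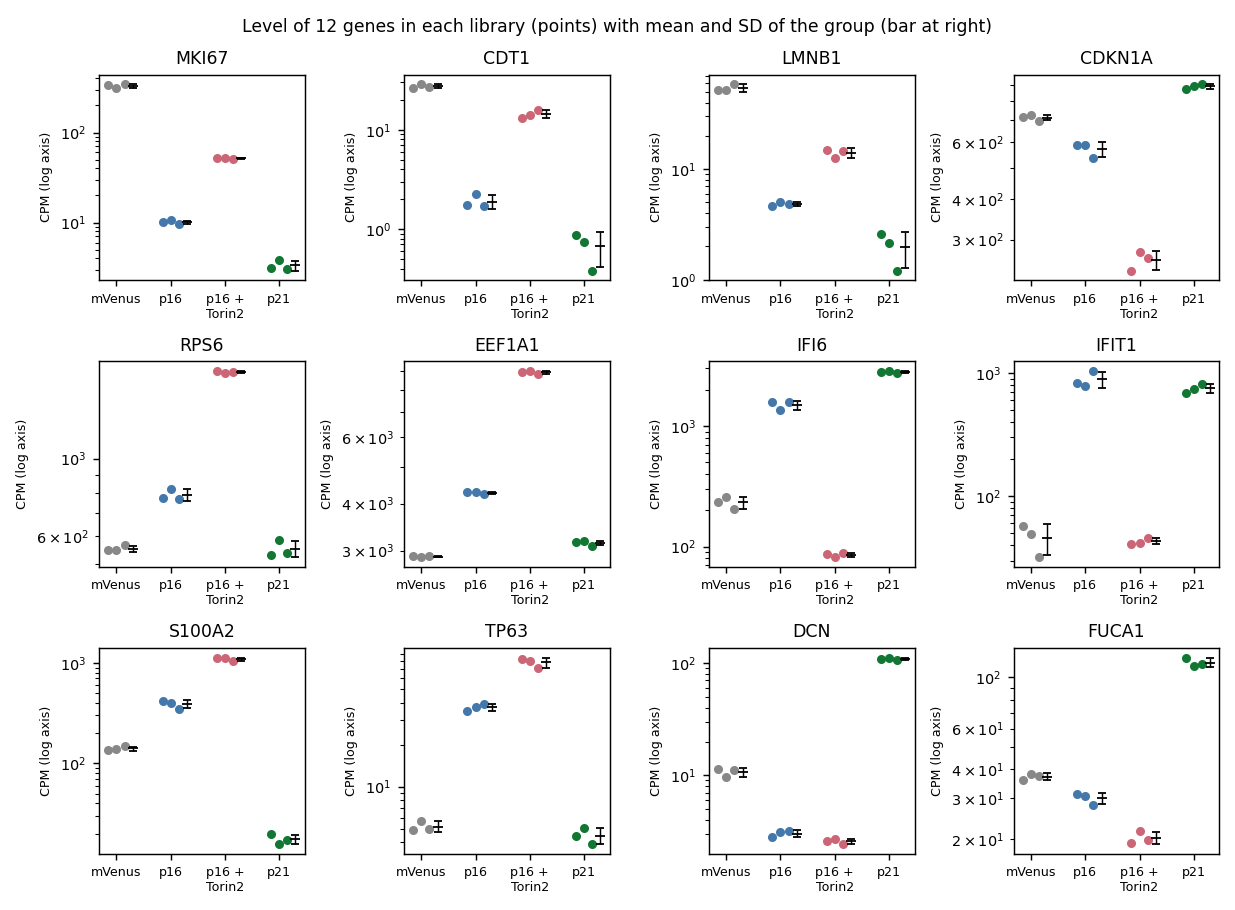
CPM (log axis) of 12 genes in each of the 3 libraries of the 4 groups, with the mean and SD of the group as the bar at the right of its points. In each panel the 3 libraries of p16 with Torin2 and the 3 of p21 do not overlap. The mean mVenus and p16 levels of CDKN1A lie between those of the 2 groups, which thus differ from these controls in opposite directions for this gene.

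Nuclear lamina and chromatin genes linked to senescence moved as well. LMNB1, which encodes lamin B1 and is lost in senescence (chr5:126776623-126837020), stood at 15.0, 12.5 and 14.6 CPM against 2.57, 2.17 and 1.21. The p21 libraries were all lower, and the fold change was 7.15 (log2 2.84 ± 0.16, adjusted p = 2.71e-12), with 4.83 ± 0.229 CPM in p16 cells with DMSO and 54.2 ± 4.22 in mVenus cells. In the list, 23 of 33 rose and 3 fell (median 0.34). HMGA2, an architectural chromatin protein, stood at 148, 129.5 and 118 CPM against 10.9, 12.5 and 12.7, a rise of 10.9-fold (adjusted p = 1.22e-17). It was 25.3 ± 2.36 CPM in p16 cells with DMSO and 17.2 ± 1.11 in mVenus cells, both below the p16 cells with Torin2.

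Transcripts of the ribosome made up a larger share of the mRNA in the p16 cells with Torin2 than in any other group of the series. The cytosolic ribosomal protein genes together took 6.54 to 6.59% of counts in these libraries and 2.66 to 2.81% in the p21 libraries, against a mean of 3.58% in p16 cells with DMSO and 2.77% in mVenus cells. The ranges of the 2 groups lay far apart (exact permutation test p = 0.1, two-sided, the smallest that 3 against 3 can give). Of 75 tested genes, 74 rose and 0 fell (median 1.22). RPS6, a protein of the small subunit (chr9:19375715-19380254), stood at 1778, 1753 and 1769 CPM against 531, 586 and 540.1. Each library with p16 and Torin2 was above each p21 library (log2 fold change 1.68 ± 0.04, adjusted p = 1.7e-18). RPS3A and RPS3 rose by 1.69 ± 0.04 and 1.65 ± 0.04, and RPL3 of the large subunit by 1.55 ± 0.04. The member that did not pass was RPL17, with 35.3% of its exonic bases shared with another gene. The set as a whole changed little in p21 cells against mVenus, with 28 higher and 11 lower (median 0.04).

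Most translation factors rose with the ribosomal proteins. Of 37, initiation and elongation factors together, 25 rose and 8 fell (median 0.53, or 0.30 without genes that overlap others). EEF1A1, which brings aminoacyl-tRNA to the ribosome and is among the most abundant transcripts, stood at 8955, 9011 and 8830.2 CPM against 3168, 3173 and 3093. It was 2.84-fold higher with no overlap (log2 1.51 ± 0.03, adjusted p = 3.31e-20). TPT1, a growth-linked protein that binds elongation factors, rose by 1.48 ± 0.04. The scaffold EIF4G1 fell by 0.44 ± 0.03 and EIF4EBP2, a translation repressor that mTOR phosphorylates, by 0.35 ± 0.04 on the log2 scale. Among host genes of small nucleolar RNAs, whose spliced RNAs are often TOP transcripts with no protein product, 13 of 16 rose and 0 fell (median 0.79), or 8 rose when genes that overlap others were left out. GAS5, the best known of them, stood at 455, 468 and 473 CPM against 108, 107 and 107, 4.33-fold higher (adjusted p = 8.04e-20). Its level was 53.1 ± 2.79 CPM in mVenus cells and 132 ± 3.49 in p16 cells with DMSO. Of 42 nucleolar ribosome biogenesis genes, 30 rose and 1 fell (median 0.35, 2 falls without replicate 2 of p16 with Torin2), with TCOF1, a cofactor of RNA polymerase I, among the largest rises (1.71 ± 0.05). The nucleolar methylase FBL had the largest, 3.83 ± 0.83, but this rested on 1 library and was 1.84 without replicate 3 of p16 with Torin2.

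These transcripts are known for the pyrimidine tract at their first base. The 30 bases around the RefSeq start site (10 before it and 20 from it on, GRCh38.p14, gene strand) are shown for risen genes of the 3 lists, with the tract in capitals where a C at the start site is followed by at least 4 pyrimidines.
RPS6 (chr9:19380217-19380246, minus strand): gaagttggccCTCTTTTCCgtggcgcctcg
RPS3A (chr4:151099618-151099647, plus strand): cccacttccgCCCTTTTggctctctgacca
RPS3 (chr11:75399508-75399537, plus strand): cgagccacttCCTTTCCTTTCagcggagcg
EEF1A1 (chr6:73521013-73521042, minus strand): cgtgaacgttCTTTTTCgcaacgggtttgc
TPT1 (chr13:45341164-45341193, minus strand): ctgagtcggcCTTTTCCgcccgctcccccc
SNHG5 (chr6:85678714-85678743, minus strand): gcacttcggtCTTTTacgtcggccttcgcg
RPL3 (chr22:39319604-39319633, minus strand): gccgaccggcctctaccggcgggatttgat
RPL3, which rose too, has no such tract at the start that RefSeq gives, and start sites used in these cells were not measured. By this rule 43 of 63 ribosomal protein genes with a RefSeq promoter (68.3%), 11 of 30 translation factors (36.7%) and 4 of 15 small nucleolar RNA host genes (26.7%) held a tract, against 4.04% of all 27305 promoters. Among the translation factors tested, the 10 with a tract had a median log2 fold change of 1.13, with 9 higher and 1 lower, and the 18 without had a median of 0.10, with 8 higher and 6 lower. Among ribosomal proteins the medians were 1.23 for the 40 with a tract and 1.13 for the 20 without. Outside both lists, 483 tested genes held a tract, of which 49.5% were higher and 25.1% lower (median 0.18), against 33.9% and 36.1% of all 10044 tested genes with a promoter (median -0.01).

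**Figure D3:**
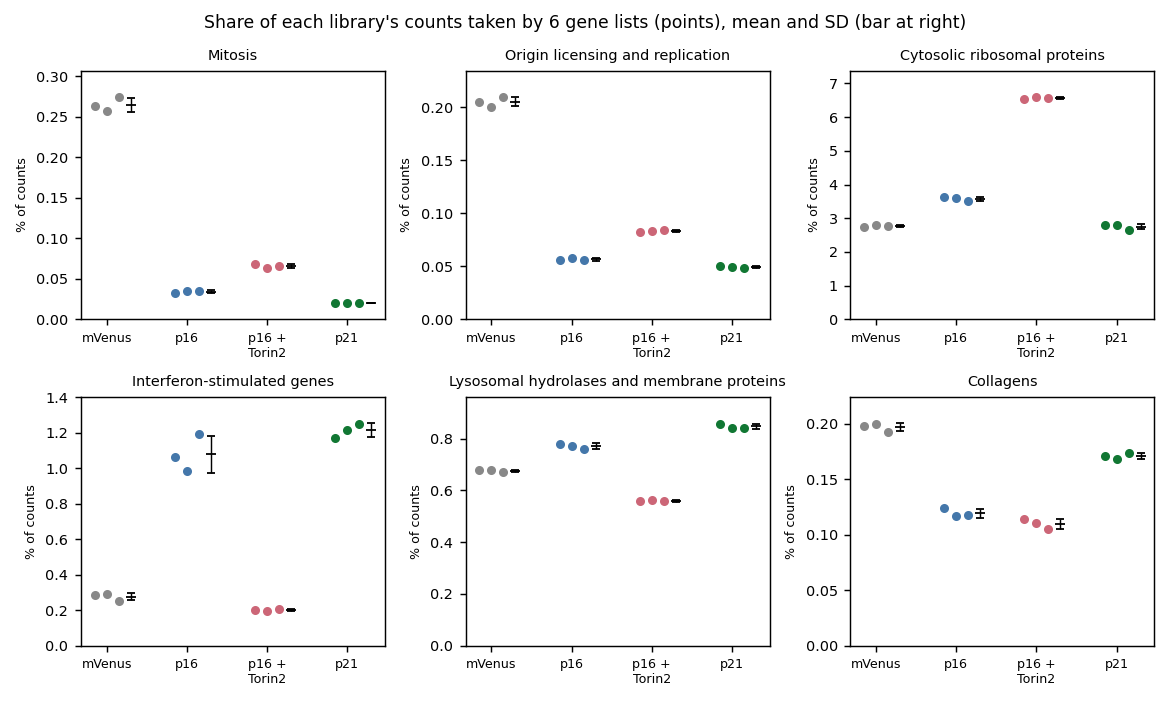
Percent of each library's counts taken by 6 gene lists in the 12 libraries (points), with the mean and SD of the group at the right. The ribosomal protein share is highest in p16 with Torin2 (6.54 to 6.59%), and the interferon-stimulated gene share is lowest there (0.196 to 0.208%) with a mean of 1.08% in p16 cells and 1.21% in p21 cells.

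The genes of the mTOR pathway itself and its feedback targets moved in both directions, as did all tested genes. Of 40 components, 10 rose (25%) and 17 fell (42.5%), beside 33.2% and 33.3% of all tested genes. The median was -0.05, near the 0.01 over all tested genes. SESN3, a sestrin that restrains mTORC1 and a target of FOXO factors, stood at 5.08, 4.40 and 4.85 CPM against 34.2, 35.7 and 33.8. It was 7.23-fold lower with no overlap (log2 -2.85 ± 0.09, adjusted p = 3.7e-16), and stood at 23.4 ± 2.22 in p16 cells with DMSO. SGK1, a kinase downstream of mTORC2, fell by 1.44 ± 0.07 on the log2 scale. RICTOR, the defining subunit of mTORC2, stood at 132, 127 and 119 CPM against 70.4, 71.9 and 69.4 (log2 0.84 ± 0.07), and RRAGD, a lysosomal GTPase that recruits mTORC1, rose by 2.26 ± 0.23. Of 23 FOXO-responsive and receptor feedback genes, 10 rose and 13 fell (median -0.52). The insulin receptor INSR rose by 0.97 ± 0.06 and its adaptor IRS2 by 0.96 ± 0.04, whereas the mitochondrial superoxide dismutase SOD2 fell by 2.13 ± 0.06. IRS2 was 138 ± 3.96 CPM with p16 and Torin2, 70.9 ± 0.748 with p21, 51.8 ± 2.25 with p16 alone and 39.4 ± 1.66 with mVenus, so it was highest in the p16 cells with Torin2.

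Lysosomal genes were lower in the p16 cells with Torin2 than in the p21 cells. Of 49 tested hydrolases and membrane proteins, 42 fell and 5 rose (median -0.63), and their summed share was 0.557 to 0.563% of counts against 0.842 to 0.858%. Against mVenus, 30 of the 49 were lower and 12 higher with p16 and Torin2, and 30 were higher and 7 lower with p21. FUCA1, a lysosomal fucosidase (chr1:23845077-23868294), stood at 19.3, 21.7 and 19.9 CPM against 121, 111 and 114. The p21 libraries were all higher, 5.69-fold on the fitted scale (log2 -2.51 ± 0.06, adjusted p = 2.18e-18). The sphingomyelinase SMPD1 fell by 1.51 ± 0.06. GLB1, which encodes the galactosidase behind the usual senescence stain, stood at 55.4, 57.1 and 59.5 CPM against 97.3, 97.2 and 94.4. It was 1.68-fold lower (log2 -0.75 ± 0.05, adjusted p = 2.48e-11), below the 77.7 ± 0.617 CPM of mVenus cells, while its 99.4 ± 5.99 in p16 cells with DMSO was near that of p21 cells. The risen members included CTSV, an epithelial cathepsin (2.16 ± 0.13). TCACGTGA, a form of the site that MiT/TFE factors bind, was found on either strand in the 250 bases before the start of 6 of 34 lysosomal genes with a RefSeq promoter (17.6%) and of 0.89% of all promoters. Among the other lists its share ran from 0 of 35 mitosis genes to 3 of 16 base excision and mismatch repair genes (18.8%). The latter list had more rises than falls. A link between the site and the lysosomal falls was not tested. Of 39 autophagy genes and MiT/TFE factors, 25 fell and 7 rose (median -0.26), with the LC3 and GABARAP family members MAP1LC3A (-1.89 ± 0.15) and GABARAPL1 (-0.85 ± 0.05) among the falls and RB1CC1, the scaffold of the initiating kinase, among the rises (0.69 ± 0.05).

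Most tested genes of cholesterol synthesis, of fatty acid synthesis and of the ATF4 programme fell. In cholesterol synthesis and uptake, 19 of 24 fell and 0 rose (median -0.54), with 1 rise without p21 replicate 1. DHCR7, a sterol reductase late in the pathway, stood at 18.4, 18.1 and 19.3 CPM against 55.0, 56.1 and 56.7, with no overlap (log2 -1.59 ± 0.06, adjusted p = 1.35e-14), and at 96.4 ± 5.68 in p16 cells with DMSO. Against mVenus the list was lower in both groups, with a median of -1.67 with p16 and Torin2 and -0.89 with p21. In fatty acid synthesis and desaturation, 13 of 19 fell and 3 rose (median -0.27), and FASN, the synthase, was among the risen at 0.26 ± 0.04. Of 38 members of the ATF4 programme, a stress response that includes transporters, tRNA synthetases, secreted factors and some enzymes of amino acid synthesis, 25 fell and 6 rose (median -0.48). PHGDH, the first enzyme of serine synthesis, stood at 1.37, 2.59 and 2.10 CPM against 14.0, 12.5 and 14.1, with no overlap (log2 -2.74 ± 0.16, adjusted p = 4.69e-12). CHAC1, a glutathione-degrading stress gene, fell by 2.87 ± 0.16 and the secreted STC2 by 2.58 ± 0.06.

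The interferon-stimulated genes showed the lowest median of all lists. Of 40 tested, 39 fell and 0 rose (median -2.52). They took 0.196 to 0.208% of counts with p16 and Torin2 and 1.17 to 1.25% with p21 (exact permutation test p = 0.1, two-sided, the smallest possible here), against a mean of 1.08% with p16 alone and 0.276% with mVenus. IFI6, a mitochondrial and endoplasmic reticulum protein with antiviral action (chr1:27666061-27672218), stood at 86.8, 81.1 and 87.7 CPM against 2788, 2873 and 2749.8. The lowest p21 library was far above the highest library with p16 and Torin2. The fold change was 32.9 (log2 -5.04 ± 0.08, adjusted p = 4.45e-21). IFIT1, which binds foreign RNA caps, stood at 41.2, 42.0 and 45.8 CPM against 690.3, 748 and 822 (log2 -4.13 ± 0.14), at 891 ± 137 in p16 cells with DMSO and at 46.1 ± 13.1 in mVenus cells. The levels with p16 and Torin2 and with mVenus were thus close, and those with p16 alone and with p21 were both high. The ubiquitin-like modifier ISG15 fell by 4.16 ± 0.11, and the log2 fold change of MX2, a GTPase that blocks viral capsids, was -6.29 ± 0.29, at 0.238 ± 0.0979 CPM against 19.4 ± 1.71. The member that did not pass was IRF7, a factor that drives interferon genes, at 0.716 ± 0.427 CPM against 0.917 ± 0.873. The 13 leukocyte markers summed to 0.00517 to 0.00557% of counts against 0.0107 to 0.0111% with p21. Of these, 3 could be tested, CSF1R and CD14 fell (-1.19 ± 0.06 and -0.55 ± 0.10), and the defining markers PTPRC, CD3E and TYROBP had 0 counts in the 6 libraries. The part of leukocytes in the result was not tested. In p21 cells against mVenus 36 of the 40 were higher and 2 lower. In p16 cells with Torin2 against the same mVenus libraries 7 were higher and 25 lower.

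The interferon response element that the ISGF3 complex reads contains GAAANN followed directly by GAAA. The 170 bases before the start of 3 of the strongest falls are printed because each holds it more than once (RefSeq, GRCh38.p14, 5′ to 3′ on the gene's strand, matches on either strand in capitals, which may overlap).
IFI6 (chr1:27672193-27672362, minus strand): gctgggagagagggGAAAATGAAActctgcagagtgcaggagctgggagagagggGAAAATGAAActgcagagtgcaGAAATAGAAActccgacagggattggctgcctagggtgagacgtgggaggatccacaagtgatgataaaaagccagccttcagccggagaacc
ISG15 (chr1:1013327-1013496, plus strand): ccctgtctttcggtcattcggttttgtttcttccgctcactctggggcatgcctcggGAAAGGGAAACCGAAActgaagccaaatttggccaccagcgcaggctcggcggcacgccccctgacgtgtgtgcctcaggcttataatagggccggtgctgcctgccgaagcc
IFIT1 (chr10:89392453-89392622, plus strand): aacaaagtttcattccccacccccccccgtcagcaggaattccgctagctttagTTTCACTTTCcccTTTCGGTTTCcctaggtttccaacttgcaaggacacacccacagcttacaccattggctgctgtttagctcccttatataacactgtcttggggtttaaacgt
The matches begin 156, 115 and 93 bases before the start of IFI6, 113 and 107 before that of ISG15 and 116 and 103 before that of IFIT1. In the 250 bases before the start, 19 of 31 listed genes with a RefSeq promoter held these letters (61.3%), against 3.07% of all promoters. Of the tested listed genes, the 18 with a match had a median log2 fold change of -2.23 and the 11 without one -2.54. Outside the list, 207 tested genes held it, of which 30% were higher and 44.9% lower (median -0.13).

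Beside cell cycle and interferon genes, the largest rises of single genes included epithelial genes and the largest falls included matrix genes. S100A2, a calcium-binding protein of basal epithelial cells (chr1:153561108-153567890), stood at 1108, 1117 and 1044 CPM against 19.7, 15.8 and 17.4, and was 62.0-fold higher (log2 5.95 ± 0.07, adjusted p = 7.28e-22). Its levels were 389 ± 33.9 in p16 cells with DMSO and 141 ± 6.46 in mVenus cells, so the p21 cells held the lowest of the 4. The cadherin FAT2 (5.52 ± 0.19), the antimicrobial ribonuclease RNASE7 (5.52 ± 0.15) and the transcription factor ONECUT3 (5.01 ± 0.23) followed. TP63, the master regulator of the basal state (chr3:189631416-189897279), stood at 83.1, 80.0 and 70.8 CPM against 4.40, 5.08 and 3.89. Its libraries did not overlap either (log2 4.12 ± 0.09, adjusted p = 1.46e-18), and mVenus cells stood at 5.18 ± 0.453, near the p21 cells. All 9 tested epithelial identity genes, TP63 among them, were lower in p21 cells than in p16 cells with DMSO. Against mVenus, however, 5 of the 9 were higher and 2 lower with p21. Between p16 with Torin2 and p21 this list went both ways, with 5 higher and 4 lower. CANX also met the rule for the largest rises, but its counts were erratic, with 40.3, 1.68 and 18.9 CPM in the libraries with p16 and Torin2, and its value was 3.21 without replicate 1 of that group. TFPI2, an inhibitor of proteases, was 4.97 and became 5.60 without p21 replicate 3.

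**Figure D4:**
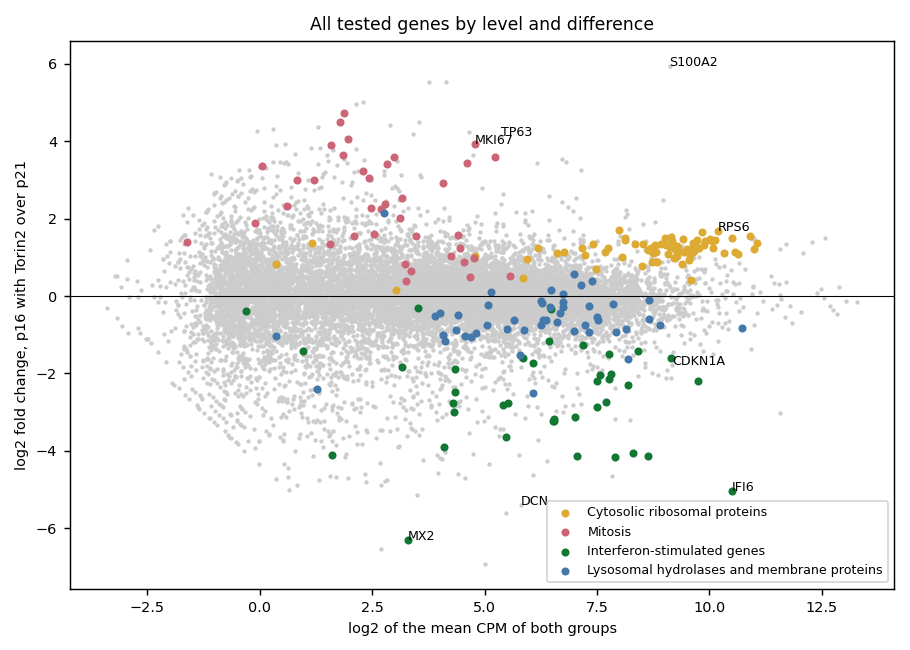
Log2 fold change of p16 with Torin2 over p21 (vertical) against the log2 of the mean CPM of the 2 groups (horizontal) for 14407 tested genes with more than 3 counts in each group, 97 others not being drawn. Ribosomal proteins form a tight band above 0 at high levels, mitosis genes lie above 0 at lower levels, and interferon-stimulated genes lie below 0.

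On the other side, DCN, the matrix proteoglycan decorin (chr12:91140484-91183123), stood at 2.61, 2.71 and 2.43 CPM against 109, 112 and 107. It was 42.2-fold lower (log2 -5.40 ± 0.08, adjusted p = 2.09e-21), and its 3.03 ± 0.197 CPM in p16 cells with DMSO and 10.7 ± 0.988 in mVenus cells place the p21 cells far above the other 3 groups. ABCA8, a lipid transporter, stood at 0.782, 0.517 and 0.262 CPM against 63.7, 64.9 and 63.0, again far above the other group in the p21 cells (log2 -6.92 ± 0.14). The channel AQP9 fell by 6.54 ± 0.25, and PAPPA, a protease that frees insulin-like growth factors, by 5.60 ± 0.10. HSPB7, a small heat shock protein, had 1 count over the 3 libraries with p16 and Torin2 and 240 over those with p21, a ratio of 243 (95% exact interval 43.2 to 9643, counting error only). LINC01235, a long non-coding RNA, had 3 counts against 231, a ratio of 78.0 (26.4 to 381).

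The epithelial programmes moved in more than 1 direction. In the basal mammary list 17 of 24 rose and 3 fell (median 0.63). The basal keratin KRT15 stood at 785, 819 and 948 CPM against 159, 151 and 143, with no overlap (log2 2.49 ± 0.06), and ITGB4, the integrin of hemidesmosomes, at 4737, 4852 and 4762 against 1909, 1892 and 1858 (log2 1.34 ± 0.04). KRT5, another basal keratin, fell, from 2820.0 ± 66.6 CPM to 1086 ± 11.0 (log2 -1.38 ± 0.03). Of 15 luminal genes 8 rose and 7 fell (median 0.10, or -0.25 with the 6 libraries alone), among them the claudin CLDN4 (2.02 ± 0.08) and the keratin KRT8 (-1.42 ± 0.05). Of 31 keratinising genes 12 rose and 12 fell (median 0.01), so that the list as a whole had no direction. KRT13, a keratin of wet stratified epithelia, and SBSN, a cornified envelope protein, rose by 4.49 ± 0.20 and 4.24 ± 0.14, and the protease KLK7 and the envelope protein IVL fell by 3.20 ± 0.08 and 2.79 ± 0.10. S100A7 had 39 counts against 1, a ratio of 38.5 (95% exact interval 6.51 to 1559). The bZIP factor site TGANTCA was found upstream of 11 of 27 keratinising genes (40.7%) and of 6.60% of all promoters. Among the other lists its share ran from 0 of 35 mitosis genes to 3 of 8 leukocyte markers (37.5%). A link between the site and the changes of keratinising genes was not tested.

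Most tested collagens fell, and the mesenchymal transition list was mixed. Of 20 collagens, 12 fell and 4 rose (median -0.76, or 0 when the 9 members of low counts were kept). COL12A1, a fibril-associated collagen, stood at 11.1, 9.63 and 10.2 CPM against 125, 129 and 154, with every p21 library higher (log2 -3.72 ± 0.09, adjusted p = 3.37e-18). COL6A1 fell by 3.05 ± 0.07, and the anchoring collagen COL7A1 rose by 0.95 ± 0.15. In the mesenchymal transition list 10 of 20 fell and 6 rose (median -0.81), and the risen included SNAI2, a repressor of epithelial genes (1.28 ± 0.10), and the hyaluronan receptor CD44 (1.19 ± 0.03). LOX, which cross-links collagen, stood at 6.84, 6.33 and 6.62 CPM against 68.2, 65.8 and 72.1 (log2 -3.38 ± 0.08, adjusted p = 3.58e-18). FN1, fibronectin, stood at 564 ± 77.1 CPM against 1589 ± 191 (log2 -1.49 ± 0.08), 2440.4 ± 152 in mVenus cells and 61.7 ± 5.04 in p16 cells with DMSO. Among the 4 groups it was therefore lowest in p16 cells without the drug. The 9 fibroblast markers together took 0.00876 to 0.00948% of counts against 0.0152 to 0.0161% with p21, a difference that DCN carries. Without it, a choice made after seeing the data, the other 8 took 0.00852 to 0.00922% against 0.00461 to 0.00499%, more with p16 and Torin2. Of the 4 that could be tested DCN and COL1A1 fell (-0.72 ± 0.20 for the latter) and FAP, a surface protease, rose (0.99 ± 0.06). Of the other markers, COL1A2, COL3A1 and DPT had at most 1 count over the 3 libraries of either group, LUM had 2 counts with p16 and Torin2 and 8 with p21, and PDGFRA had 0 and 4. The part of other cells in the result was not tested.

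The secretory and inflammatory genes of senescence were divided. Of 39 tested secreted factors, 25 fell and 12 rose (median -0.66). Another 12 of the 51 listed factors had too few counts to be tested, so these numbers do not cover them. TGFB2, a ligand that acts on epithelia and stroma, stood at 3.06, 4.27 and 2.69 CPM against 26.3, 27.2 and 26.9, with no overlap (log2 -3.00 ± 0.14, adjusted p = 8.22e-14). IGFBP4, which binds insulin-like growth factors, fell by 4.09 ± 0.29. SERPINB2, an inhibitor of plasminogen activators, rose by 1.97 ± 0.07. INHBA, a subunit of activin, had 131 counts against 0, at least 43.1-fold higher against a floor of 3 counts over the 3 p21 libraries, and MMP9, a gelatinase, had 15 against 0, at least 4.93-fold higher. The list median is the same with both genes at these bounds. Of 18 NF-kappaB subunits and targets 9 fell and 2 rose (median -0.25, or -0.14 without replicate 3 of p16 with Torin2), and the inhibitor of apoptosis BIRC3 fell by 1.09 ± 0.07.

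**Figure D5:**
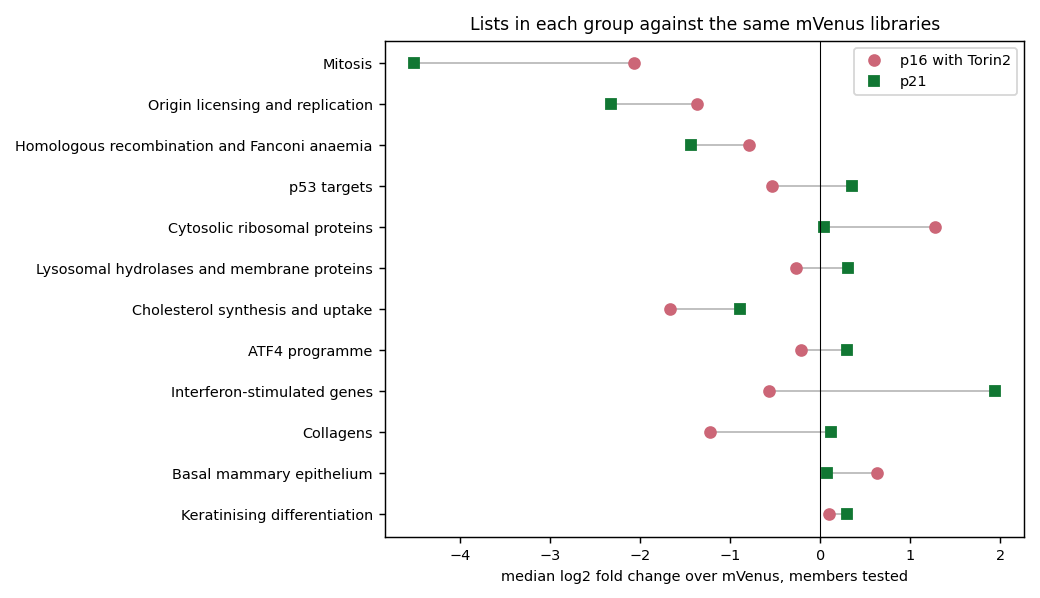
Median log2 fold change over mVenus of the tested members of 12 gene lists in p16 cells with Torin2 (circles) and in p21 cells (squares), both set against the same 3 mVenus libraries. Mitosis is below 0 in both (-2.07 and -4.51), whereas p53 targets, interferon-stimulated genes and lysosomal genes are below 0 with p16 and Torin2 and above 0 with p21.

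Epithelial identity genes had counts in these libraries. Of 10 such genes 9 were tested, from TP63 to KRT18 and EPCAM, and the remaining GRHL2 had 0 counts in all 12 libraries. Of the tested, 5 rose and 4 fell. This list took a mean of 0.334% of counts with p16 and Torin2 and 0.584% with p21. The mean was 0.928% in p16 cells with DMSO and 0.391% in mVenus cells. Of 8 endothelial markers 3 could be tested. ROBO4 and KDR rose (2.53 ± 0.23 and 0.85 ± 0.25), and PECAM1 did not pass (-0.98 ± 0.56). The endothelial list took 0.000795 to 0.00109% of counts against 0.000270 to 0.000403% with p21. Of its untested members, CDH5 had 3 counts with p16 and Torin2 and 1 with p21, and VWF had 12 and 8. TEK went the other way, with 16 and 22, ERG had 1 and 1, and EMCN had 0 in both. Several genes that most cells use had few counts with little exonic overlap (ACTN4, with 4 counts over the 3 libraries with p16 and Torin2, is an example), so a low count in these files is not read as low expression.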

How the data were processed

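Messenger RNA from 12 MCF10-A cultures was sequenced with a stranded KAPA kit after oligo-dT selection, per the labels' protocols. The authors deposited 1 table of raw counts per gene and library. Per the file headers, reads were counted with featureCounts 1.6.3 on the GENCODE 29 annotation with no strand option, so overlapping genes cannot be told apart. The submitters' processing notes name FastQC 0.11.3, HISAT2, Subread, DESeq2 and the build GRCh38.p7. The deposited tables of the authors' own comparisons were not used.

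All 57133 gene names were joined over the 12 libraries, of which 30296 had a count. Library totals ranged from 13168749 to 18321114. Genes were kept by filterByExpr (14504), scaled by TMM and tested in edgeR 4.0.16 (R 4.3.3) by the quasi-likelihood test, two-sided, with a coefficient per group in 1 fit of all 12 libraries (8 residual degrees of freedom, common biological coefficient of variation 3.94%) and Benjamini-Hochberg adjustment over all tested genes at 0.05. Brackets after a gene give its log2 fold change ± SE. Floors are 3 counts over the libraries of a group, and intervals (95%, exact) cover counting error only. Counts of list members use the same adjustment. Summed shares were compared by an exact permutation test. Nothing ties a replicate to a separate culture beyond the series text, so p-values measure the spread between these libraries.

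The members and the 43 gene lists were chosen with earlier results of these data known. Of the listed symbols, 8 were matched by a RefSeq synonym. Named genes were CDKN2A, CDKN1A, MKI67, LMNB1 and GLB1, the 12 largest rises and the 12 largest falls (those that passed, with a mean of 5 CPM or more in whichever group was higher, no overlap of libraries and at most 30% of exonic bases shared), and per list up to 4 largest rises and 4 largest falls that passed, up to 2 abundant members that did not, or any member of a list of at most 13. Untested genes that are named only for their counts (CDKN2B, GRHL2, ACTN4, other marker genes) were chosen after their counts were seen. Motifs were searched in RefSeq promoters on GRCh38.p14 (27305, 1 per symbol), 250 bases before the start, on both strands except for the tract at the start site. CACGTG was found upstream of 29.4% of 34 lysosomal genes and 6.49% of all. TGATGCAAT was found upstream of 0 of 22 ATF4 genes and 0.245% of all. Only 1 fixed form of the CArG box that serum response factor binds was searched. That form was found upstream of 1 of 23 ERK feedback and immediate early genes and 0.033% of all. Other forms of the box were not searched, so these shares do not show how often it occurs.

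On simulated counts (14333 genes) only 67, 67 and 66 genes were changed 1.2-, 1.5- and 2-fold between the 2 groups. The code recovered 47.8%, 68.7% and 90.9% of them, with 16 false calls. In the data 66.5% of tested genes were called, so these shares need not hold there. Alternatives were DESeq2 size factors, upper quartile scaling, testing every gene with a count, the Wald test of DESeq2 1.42.0, the 6 libraries alone, the replicate number as a block, leaving out 1 library at a time and, for lists, dropping overlapped genes. Figures were drawn with matplotlib.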

Additional observations from a re-analysis of the deposited data

How the results depend on the processing

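The numbers of genes called higher and lower (4815 and 4823) kept their size under every alternative run. They were 4795 and 4843 with DESeq2 size factors, 5042 and 4603 with upper quartile scaling, 4794 and 5109 with no filter, 4189 and 4480 with the DESeq2 Wald test and 4781 and 4854 with the 6 libraries alone. Leaving out each library in turn gave 4483 to 4601 higher and 4578 to 4626 lower. Scalings moved the median of all genes by at most 0.02 on the log2 scale. With the replicate number as a block the counts were 4763 and 4760. The numbers did not pair the libraries, since deviations of same-numbered libraries from their group means had r of -0.04, 0.00 and -0.04 across genes. Of 367 named genes tested, 296 were called, 14 lost the call under at least 1 alternative and 1 changed direction: ZYX, a focal adhesion gene with erratic counts, was -1.81 and became 0.49 without p21 replicate 1 (adjusted p = 0.260), with a range of -2.31 to 0.49 over the libraries left out. The respiratory chain genes that fell went from 11 to 7 with upper quartile scaling and without 1 library of either group, and the small nucleolar RNA host genes that rose from 13 to 8 when overlapped genes were left out. With no filter on low counts the median of the collagens went from -0.76 to 0, that of the Notch genes from 0.39 to 0.21 and that of the luminal genes from 0.10 to -0.01. The median of the laminins and integrins was -0.13 and became -0.22 with the 6 libraries alone or without overlapped genes. Depth limits the genes of few counts. Those with at most 3 counts in a group are given as ratios or bounds, and the fitted values of DLGAP5, ABCA8 and MX2 also rest on few counts.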

Other observations

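Other gene lists, beginning with signalling, are set here beside all tested genes. Of all tested genes, 33.2% were higher in the p16 cells with Torin2 than in the p21 cells, and 33.3% were lower. Of 31 genes of ERK feedback and the immediate early response, 22 rose and 4 fell (median log2 fold change 0.93). MYC, a driver of growth and ribosome genes, stood at 452, 437 and 449 CPM against 104, 109 and 114, and the groups did not overlap (log2 fold change 2.04 ± 0.04, adjusted p = 1.97e-19). It was 326 ± 11.8 CPM in p16 cells with DMSO and 64.6 ± 0.201 in mVenus cells. DUSP7, a phosphatase that turns ERK off, rose by 2.42 ± 0.06, and FOSL2, a subunit of AP-1, fell by 1.06 ± 0.04 on the log2 scale. The ligands of the EGF receptor went mostly the other way, with 7 of 11 lower and 3 higher (median -0.58, or -0.96 without a member that overlaps another gene). AREG, amphiregulin, stood at 225, 216 and 197 CPM against 898, 894 and 962, with every p21 library higher (log2 -2.11 ± 0.06, adjusted p = 1.51e-17). EPGN, epigen, fell by 2.38 ± 0.04, and HBEGF rose by 0.89 ± 0.06.

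Of 13 Notch genes, 8 rose and 2 fell (median 0.39), with 1 fall when replicate 1 or 2 of either group was left out. HES1, a repressor that Notch induces, stood at 50.6, 54.9 and 55.1 CPM against 7.12, 7.86 and 8.22, with no overlap (log2 2.79 ± 0.08, adjusted p = 2.21e-17). The receptor NOTCH3 and the ligand JAG1 rose by 2.09 ± 0.11 and 1.25 ± 0.06, and NOTCH2 fell by 0.66 ± 0.04. Of 27 antioxidant genes of NRF2, 14 fell and 7 rose (median -0.14). GCLC, which limits glutathione synthesis, and TXNRD1, thioredoxin reductase, fell by 1.55 ± 0.05 and 1.52 ± 0.04. Of 24 contractile and YAP target genes, 14 fell and 6 rose (median -0.41). The matricellular CYR61 stood at 87.7, 83.5 and 73.4 CPM against 292, 307 and 324 (log2 -1.92 ± 0.06), and the actin crosslinker FLNA rose by 0.85 ± 0.04. Of 55 nuclear genes of the respiratory chain, 25 rose and 11 fell (median 0.12), and of 13 mitochondrially encoded mRNAs 1 rose and 8 fell (median -0.20, or -0.13 without p21 replicate 3). The 11 falls were 7 without replicate 1 of either group, and the rise was lost without replicate 3 of p16 with Torin2 or p21 replicate 1 or 2. The sum of the mitochondrially encoded mRNAs was 4.65 to 5.80% of counts against 5.29 to 6.14% with p21, and these ranges overlapped. Laminins and integrins (8 of 23 higher, 11 lower), glycolysis and hypoxia genes (13 of 31 higher, 12 lower), endoplasmic reticulum stress genes (3 of 20 higher, 16 lower) and TGF-beta genes (10 of 24 higher, 9 lower) had medians of -0.13, -0.05, -0.27 and 0.00. The shares higher and lower were 41.9% and 38.7% for glycolysis and hypoxia and 41.7% and 37.5% for TGF-beta. Both lists were thus near the 33.2% and 33.3% of all tested genes.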
